A study of Mus musculus with 12 samples.

Results

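The effect of carrying Sry was examined in thymus whose sex chromosomes are XY-, by setting 3 XY-sry males against 3 XY- females. The members are the 6 arrays whose labels give these genotypes, out of 12 in the series. Each array was hybridised with thymus total RNA of a mouse aged 7 to 8 weeks, and the labels call the 3 samples of a genotype biological replicates. Mice so named are known to carry a Y chromosome from which Sry has been deleted, which both groups share, and the males carry Sry as a transgene. The labels give the genotypes XY- (female) and XY-sry (male) only. Strain, transgene site and any treatment of the gonads are not given in the sources used here. Another 6 arrays, 3 XX females and 3 XXsry males, served to share the estimate of spread and to ask where the effect differs. Values were on a log2 scale from RMA, and a probe set was tested where its mean over the 6 arrays was at least 5. This left 17910 probe sets, of which 15753 carried 1 gene symbol, for 9490 genes.

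Sry encodes the transcription factor that starts testis development in the fetal gonad. Mice with Sry usually form testes and those without it ovaries. The labels used here do not say whether the gonads were intact, so a direct effect of Sry and an effect of the gonads or their hormones cannot be told apart in this comparison. The thymus is where precursors pass through double-negative and double-positive (CD4+ CD8+) stages on a cortical epithelium and leave as single-positive T cells from the medulla. It also holds smaller populations of natural killer, innate-like T, B, dendritic and stromal cells, and it is known to respond to sex steroids. RNA came from whole tissue, so fewer cells of a type and less RNA per cell cannot be told apart in any value below.

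The arrays did carry thymus RNA by their markers. Of 11 thymus markers, 10 were measured and none passed the test of XY-sry against XY-, with differences from -0.18 (Aire) to 0.29 (Foxn1). Cd4, Cd8a and Rag1 differed by -0.08, -0.13 and 0.05. Markers of neighbouring tissues were mostly under the floor of 5: 8 of 17 fat genes, 2 of 10 skeletal muscle genes, 2 of 10 parathyroid and thyroid genes and 1 of 8 lymph node genes were measured. None of these passed, and the muscle genes Acta1 and Ckm and the thyroid gene Tg lay below the floor in both groups.

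XY- replicate 2 stood apart from the other arrays. Its median value was 4.10, against 4.02 to 4.06 in the other 11, and its array weight was 0.204, the lowest of the 12. The 3' minus 5' difference of the beta-actin control probe sets, which rises as RNA is shorter, was 0.69, 0.51 and 0.68 in XY- and 0.83, 0.74 and 0.80 in XY-sry. All 3 males lay above all 3 females (exact two-sided permutation p = 0.1, the smallest that 3 against 3 allows). The same difference for Gapdh was -0.02, -0.07 and -0.05 in XY- and 0.03, 0.01 and -0.03 in XY-sry (exact two-sided permutation p = 0.2). The actin difference is therefore also used as a covariate, and the main counts below are given with it too. Spread within a group was widest in XY-, with a median SD of 0.104 over probe sets, against 0.0751 in XY-sry, 0.0721 in XX and 0.0737 in XXsry.

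Sry itself was higher in every male. It read 5.23, 5.55 and 5.65 in XY- and 6.90, 6.84 and 7.20 in XY-sry. XX females, which lack the gene, read 5.33, 5.39 and 5.34, inside the range of XY-, so the log2 difference of 1.50 ± 0.113 (standard error) is a lower bound, at least 2.84-fold higher. It passed with a limma adjusted p of 0.000123 and had the same size in XX (1.48). A second Sry probe set, below the floor, read 2.64, 2.32 and 2.02 in XY- and 3.18, 3.77 and 3.28 in XY-sry. Both groups carry the rest of the Y, and its measured genes did not pass: Eif2s3y, a translation initiation subunit, differed by 0.16, and the histone demethylases Kdm5d and Uty by 0.19 and 0.37 (limma adjusted p = 0.708, 0.431 and 0.268). With the actin covariate these differences turned to -0.33, -0.17 and -0.31.

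Across the transcriptome, 1539 of 17910 probe sets passed a Benjamini-Hochberg adjusted p under 0.05 in limma, or 8.59%, and stood for 1099 named genes. Of these, 761 were higher in XY-sry (4.25%) and 778 lower (4.34%). Centring each array on its median moved this split to 1173 higher and 693 lower. Most differences were small, with a median of 0.32 among the higher and -0.54 among the lower. A size of at least 1 was reached by 4 higher and 128 lower probe sets. The median over all tested probe sets was 0.04. The 3 males lay above all 3 females in 3220 probe sets (18.0%) and below them in 1680 (9.38%), and 1529 of the 1539 that passed were among these.

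How many probe sets passed depended strongly on the arrays, covariates and weights in the fit. With only the 6 XY- and XY-sry arrays in the fit, 59 passed (0.329%), 23 higher and 36 lower, and 58 of them were among the 1539. With the actin difference as a covariate 54 passed, 44 of them shared with the 1539, and with the Gapdh difference 78 passed, 70 of them shared. Without XY-sry replicate 1 the count was 557, without XY-sry replicate 3 it was 525, and array weights raised it to 4253. Of 93 list members called in the account below, 17 did not pass without XY- replicate 2 (adjusted p up to 0.117): Cxcl9, Cxcl12, Oas1a, Nlrc5, Gimap3, Izumo1r, Gzma, Ighm, Cd22, Cd209a, Il7, Csn2, Dbp, Bid, Gsr, Sc5d and Dnmt3b. All 1539 kept their sign under both covariates, without XY- replicate 2, with array weights, under median centring and under quantile normalization. A set of 20 probe sets passed in every planned fit that tested them, and 18 of them had a gene name. Sry, Igfbp5, Ltbp3, Isl1, Fkbp5, Cds1 and Gm6958 rose, and H2-T24, Id2, Cxcr3, Cxcr6, Cd44, Cd28, Timp3, Nlk, Cd7, Slc25a30 and Icos fell. The fits added after seeing the data were not part of this rule.

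Probe sets of one gene often differed. Of 134 genes named here with a call, 72 had more than 1 tested probe set. In 23 of the 72 all passed in the same direction, in 48 at least 1 did not pass, and in 25 at least 1 had the opposite sign. In 3 of them, Arglu1, Ccdc88c and Pus3, a probe set passed in the opposite direction. A value given for a gene is that of the probe set named by the rule, and does not stand for its other probe sets.

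**Figure D1:**
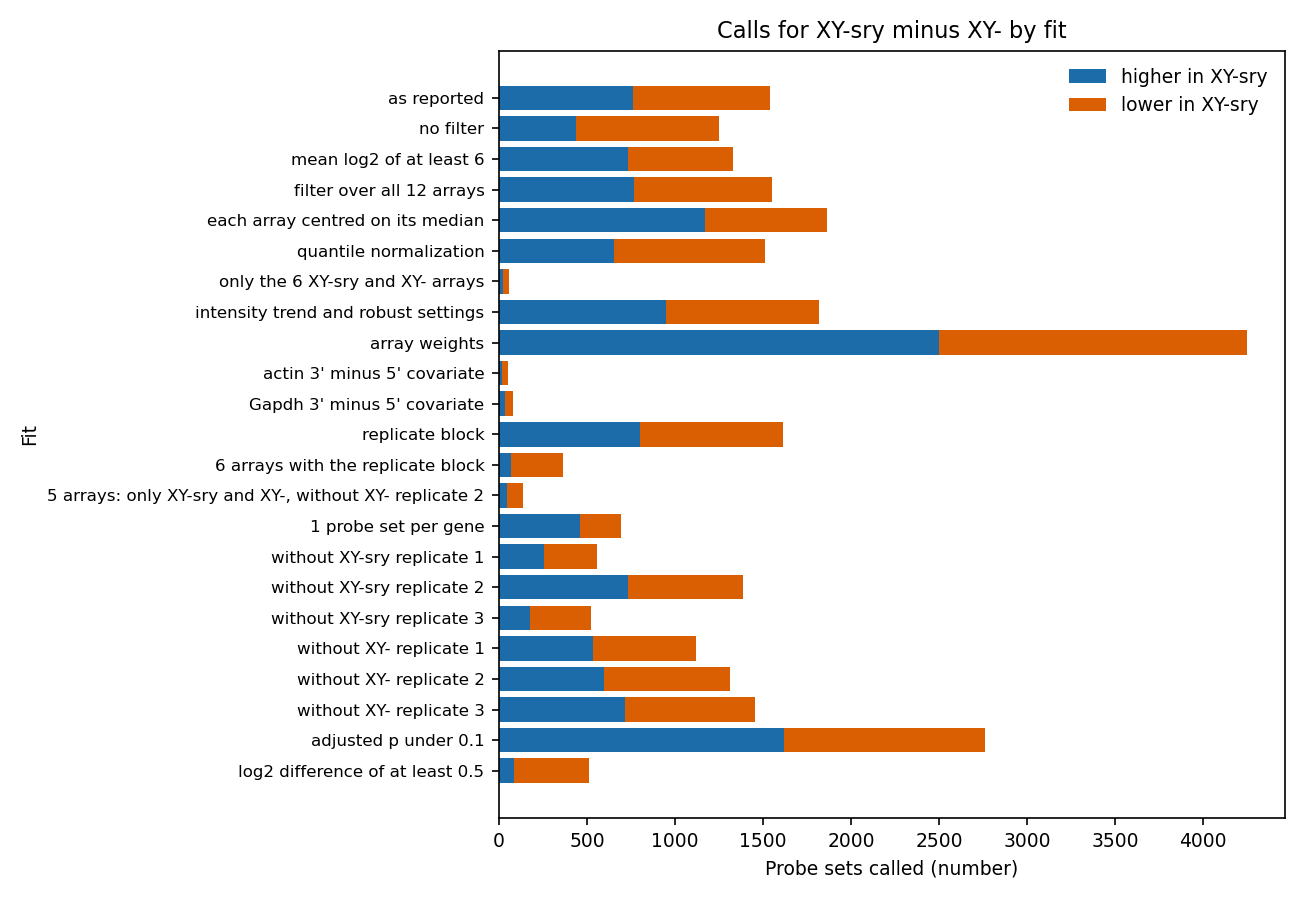
Number of probe sets past an adjusted p of 0.05 for XY-sry minus XY- under each fit, with those higher in XY-sry in blue and those lower in orange. The count runs from 54 with the actin covariate to 4253 with array weights, around 1539 as reported.

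Among named genes Igfbp5 rose most. It encodes a secreted protein that binds insulin-like growth factors. It read 7.64, 7.39 and 7.92 in XY- and 9.32, 8.91 and 9.34 in XY-sry, a log2 difference of 1.54 ± 0.136, or 2.91-fold (limma adjusted p = 0.000512). Every male lay above every female, and a second probe set rose by 0.52. Ltbp3, which binds latent TGF-beta in the matrix, read 5.32, 5.35 and 5.48 against 6.13, 6.07 and 6.09 (0.71 ± 0.0749; adjusted p = 0.0012). Isl1, a LIM homeodomain transcription factor, rose by 0.62 and 0.69 in its 2 probe sets. Fkbp5, a co-chaperone of steroid receptors and a known target of androgen and glucocorticoid receptors, rose by 0.51 and 0.50, with values of 8.24 to 8.31 in XY- and 8.71 to 8.82 in XY-sry for the first probe set. For all 4 genes the groups were well apart, with no overlap.

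Other genes with the smallest p among those that rose had varied roles. Kcnk2, a potassium channel, read 5.51, 5.19 and 5.45 in XY- and 6.34, 6.18 and 6.11 in XY-sry, a rise of 0.83. Nqo1, a quinone reductase, read 5.57, 5.44 and 5.90 against 6.54, 6.47 and 6.53, a rise of 0.88. The males formed a tight group in Nqo1 and lay clear of the females in both genes. Smarcc1, a subunit of SWI/SNF chromatin remodellers, rose by 0.65 in 1 of 3 probe sets, the others differing by -0.26 and 0.07. Cds1, an enzyme of phospholipid synthesis, rose by 0.56, and Trp63, a transcription factor of stratified epithelia, by 0.65. The growth factor receptor Fgfr2 rose by 0.51, the transporter gene Abca8a by 0.65, the neurofilament gene Nefm by 0.46 and Tcof1, a nucleolar protein, by 0.40, with its other 2 probe sets at 0.08 and -0.02. Rbms3, an RNA-binding protein, rose by 0.54, Sfxn1, a mitochondrial serine carrier, by 0.55, Rras2, a small GTPase, by 0.37 and Cyb5r3, a cytochrome b5 reductase, by 0.41. The gamma chain V segments Trgv1 and Trgv4 rose by 0.56 and 0.57. The probe sets of these V segments may cross-hybridise with related segments, so the 2 are uncertain as separate results.

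By size, the rises after Sry and Igfbp5 were led by Grp (0.92), Nqo1, Gm6958 (0.85), Kcnk2, Taf15 (0.83), Arglu1 (0.81), Il2ra (0.80) and Snhg11 (0.77). Grp encodes gastrin-releasing peptide, and read 6.19, 5.87 and 6.61 in XY- and 7.13, 6.83 and 7.48 in XY-sry. Il2ra, the alpha chain of the interleukin 2 receptor, read 5.58, 5.42 and 5.51 in XY- and 6.35, 6.49 and 6.08 in XY-sry. The groups did not overlap in either gene, though in Grp the gap between them was narrower than the range within each group. Arglu1, a regulator of splicing, had 2 probe sets that moved in opposite directions, 0.81 and -0.30, both past the threshold.

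**Figure D2:**
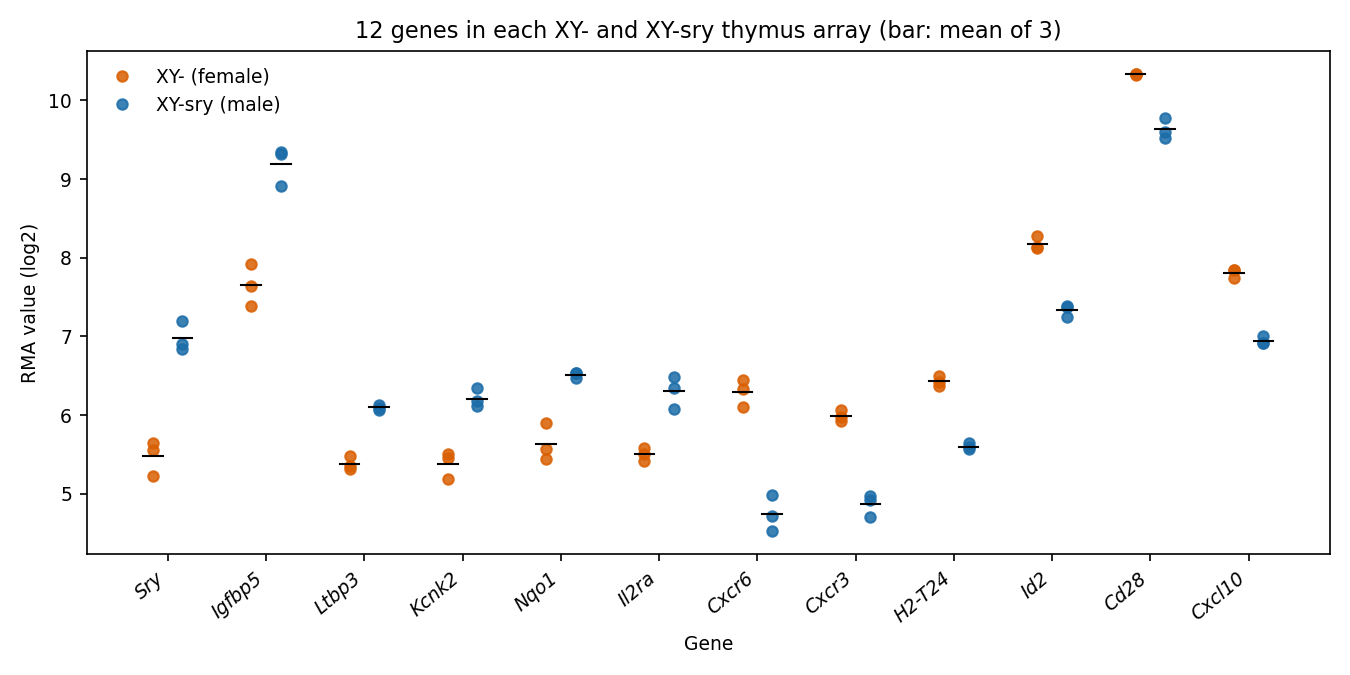
RMA values (log2) of 12 genes in each of the 3 XY- (orange) and 3 XY-sry (blue) arrays, with bars at the group means. In none of the 12 do the groups overlap: 6 are higher in XY-sry, Sry and Igfbp5 by the most, and 6 are lower, Cxcr6 and Cxcr3 by the most. The 12 were picked from the 1539 probe sets that passed, of which 1529 do not overlap. Of all probe sets 18.0% lay above and 9.38% below without overlap.

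Several of the genes that fell with the smallest p are known from lymphocytes. H2-T24, a non-classical MHC class I gene, read 6.42, 6.37 and 6.50 in XY- and 5.57, 5.64 and 5.59 in XY-sry, a fall of 0.83 on the log2 scale (limma adjusted p = 0.000123). Id2, an inhibitor of E proteins needed for natural killer and innate lymphoid cells, read 8.14, 8.12 and 8.27 against 7.38, 7.25 and 7.37. It fell by 0.84, and by 0.69 in its second probe set. Cd28, the costimulatory receptor of T cells, read 10.32, 10.34 and 10.34 against 9.52, 9.78 and 9.60, a fall of 0.70 (adjusted p = 0.000772). Its second tested probe set differed by only -0.01 (adjusted p = 0.962), so the fall in Cd28 rests on 1 of 2 probe sets. Cd44, the hyaluronan receptor of activated and precursor T cells, fell by 0.98 and 0.68 in 2 probe sets, while the third differed by -0.27 (adjusted p = 0.103). Groups did not overlap in the probe sets whose values are listed here.

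Cd7, a surface protein of T and natural killer cells, fell by 0.56 and Icos, an inducible costimulator, by 0.78. Icos fell in all 3 of its probe sets, the others by 0.67 and 0.68. Ccr6, a chemokine receptor, read 5.39, 5.92 and 5.72 in XY- and 4.54, 4.64 and 4.22 in XY-sry, a fall of 1.21. It averaged 4.47 in XY-sry, below the floor of 5, and was measured through its XY- values. Timp3, an inhibitor of metalloproteinases, fell by 0.79 and 0.34 in its 2 probe sets. Slc25a30, a mitochondrial carrier, fell by 0.75, and Ttc39a by 0.54.

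In several other genes the fall was in a minority of probe sets. The kinase Nlk fell by 0.62 in 1 of 3, with the others at -0.02 and 0.04, and the exchange factor Trio by 0.67 in 1 of 2, with the other at 0.00. The endosomal protein Pdcd6ip fell by 0.70 in 1 of 4, with the others at -0.09, 0.13 and 0.06. Ccdc88c, a Dishevelled-binding protein, fell by 0.64 in 1 probe set, rose by 0.32 in another (adjusted p = 0.0389) and differed by 0.28 in the third. The ubiquitin ligase Marchf7 fell by 0.60 and 0.41 in 2 of 4 probe sets, with the others at -0.03 and 0.19. The zinc finger repressor Zbtb20 fell by 0.78 and 0.38 in 2 of 8, and the other 6 lay between -0.18 and 0.12.

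Most measured genes of innate-like T and natural killer cells were lower in XY-sry. Of 23 listed genes 11 were measured, 7 fell, 1 rose and 3 did not pass, with a median log2 difference of -0.63, against 4.34% lower, 4.25% higher and a median of 0.04 for all probe sets. Shares of all probe sets, here and for the lists below, include every tested probe set, while a list counts the brightest of each gene. A fit with 1 probe set for each of the 9490 genes called 461 higher and 230 lower. In the fit of the 6 arrays alone 2 of the 11 passed, and 4 with the actin covariate. The floor of 5 applied to the mean over both groups. Cxcr6, Cxcr3 and Klrd1 averaged 4.74, 4.87 and 4.68 in XY-sry, below it, and were measured through their XY- values. Genes low in both groups were left out, so the count leans to genes high in 1 group and is a description only. Cxcr6, a chemokine receptor of natural killer T cells, read 6.33, 6.10 and 6.44 in XY- and 4.72, 4.52 and 4.99 in XY-sry (-1.55 ± 0.140; adjusted p = 0.000543). Cxcr3, a receptor for interferon-induced chemokines, read 5.98, 5.93 and 6.06 against 4.97, 4.92 and 4.71 (-1.12 ± 0.112; adjusted p = 0.000772). The groups were over 1 log2 unit apart in mean in both genes. Klrd1, a natural killer receptor chain, read 6.13, 5.14 and 6.25 against 4.78, 4.53 and 4.73, so that XY- replicate 2 lay nearest the males. It fell by 1.16, Nkg7, a cytotoxic granule protein, by 0.68, Il18r1, an interleukin 18 receptor chain, by 0.63 and the chemokine Ccl5 by 0.62. Gzma, a granzyme, went the other way and rose by 0.28. Below the floor, in the fit without a filter, Gzmb, Tbx21 and Klrk1 fell by 0.78, 0.73 and 0.60, while Zbtb16, Prf1, Eomes and Ncr1 differed by 0.08, -0.10, -0.12 and 0.06 and did not pass.

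Chemokines and their receptors had 20 measured genes, of which 5 fell, 1 rose and 14 did not pass (median -0.29), against 4.34% of all probe sets lower and 4.25% higher. The 5 are Cxcr6, Cxcr3, Ccl5 and the Cxcr3 ligands Cxcl9 and Cxcl10, 3 of them shared with the natural killer list. The receptor Ccr6, which fell by 1.21, was not on this list and is not in its counts. Cxcl10 read 7.74, 7.84 and 7.84 in XY- and 7.00, 6.91 and 6.92 in XY-sry, a fall of 0.86 (adjusted p = 0.00285). Cxcl9 read 7.04, 7.12 and 7.40 against 6.55, 6.50 and 6.36, a fall of 0.72 (adjusted p = 0.0303), which did not pass without XY- replicate 2 (adjusted p = 0.0506). Both ligands were lower in all males than in any female. Cxcl12, a chemokine of the cortical stroma, rose by 0.25. In the fit of the 6 arrays 3 of the 20 passed. Cxcr6 and Cxcr3 averaged below the floor of 5 in XY-sry and were measured through their XY- values.

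Interferon-stimulated genes leaned downward. Of 48 listed genes 40 were measured, 8 fell (against 4.34% of all probe sets), none rose and 32 did not pass, with a median of -0.24. In 24 of the 40 all 3 males lay below all 3 females, and 2 of the 40 showed the opposite, against 9.38% and 18.0% of all probe sets. The 8 that fell included Cxcl10, Cxcl9 and the antiviral genes Trim30a (-0.78), Ddx60 (-0.74), Rtp4 (-0.54) and Samhd1 (-0.41), with Ifi27l2a (-0.42) and Oas1a (-0.32). Trim30a read 8.00, 8.27 and 8.29 in XY- and 7.37, 7.50 and 7.35 in XY-sry. Only Cxcl10 and Trim30a passed in the fit of the 6 arrays, and none passed with the actin covariate, although the median there was again -0.24. Of 14 genes for interferons, their receptors and kinases, only Socs1, a feedback inhibitor of cytokine signalling, passed, with a fall of 0.66 and a list median of -0.06. Its values were 7.43, 7.21 and 7.23 in XY- and 6.39, 6.62 and 6.89 in XY-sry.

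The upstream sequences of interferon-stimulated genes are shown because so many of them carry the same element. The 250 bases before the gene start were taken from RefSeq for GRCm38.p6 and matched by symbol for 31 of the 40 genes. They were searched on both strands for the core of the interferon-stimulated response element, GAAA followed by any 2 bases and GAAA, with overlapping matches counted. It was present in 14 of the 31 (45.2%), against 2.98% of 32851 mouse promoters of the same length and 3.27% of 7764 genes tested here. Of 6 genes that fell and had a promoter, 4 held it. They are printed 5' to 3' on the gene's strand, with bases of a match on either strand in capitals. Cxcl10 lies upstream of its start at chr5:92348890-92349139 (minus strand), Trim30a at chr7:104465194-104465443 (minus strand), Ddx60 at chr8:61927837-61928086 (plus strand) and Oas1a at chr5:120907526-120907775 (minus strand). A match is a description of the letters and shows no binding.
Cxcl10: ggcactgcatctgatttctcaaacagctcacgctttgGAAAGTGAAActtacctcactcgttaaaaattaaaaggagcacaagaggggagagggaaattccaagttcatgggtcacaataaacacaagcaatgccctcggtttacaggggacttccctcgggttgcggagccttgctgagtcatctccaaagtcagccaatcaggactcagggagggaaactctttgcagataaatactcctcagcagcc
Trim30a: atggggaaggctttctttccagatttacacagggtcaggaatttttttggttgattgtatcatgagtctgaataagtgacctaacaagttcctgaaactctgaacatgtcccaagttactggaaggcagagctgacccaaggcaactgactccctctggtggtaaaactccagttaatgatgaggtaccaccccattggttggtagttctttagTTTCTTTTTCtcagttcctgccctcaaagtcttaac
Ddx60: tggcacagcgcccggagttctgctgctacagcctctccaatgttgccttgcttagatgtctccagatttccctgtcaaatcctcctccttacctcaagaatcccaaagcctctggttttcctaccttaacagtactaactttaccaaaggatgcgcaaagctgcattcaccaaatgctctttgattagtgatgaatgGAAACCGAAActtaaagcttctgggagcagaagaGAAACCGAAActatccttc
Oas1a: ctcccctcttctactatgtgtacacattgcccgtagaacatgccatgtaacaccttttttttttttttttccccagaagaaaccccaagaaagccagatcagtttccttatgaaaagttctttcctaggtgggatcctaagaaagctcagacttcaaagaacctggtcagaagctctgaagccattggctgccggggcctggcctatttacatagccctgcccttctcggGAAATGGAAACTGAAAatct
Ddx60 and Oas1a hold 2 matches each, which overlap in Oas1a, and Cxcl10 and Trim30a hold 1 each. These 4 genes fell by 0.86, 0.78, 0.74 and 0.32 in the order Cxcl10, Trim30a, Ddx60 and Oas1a.

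Antigen presentation genes gave 4 calls among 29 measured, all falls, against 8.59% of all probe sets called. Of 18 MHC class I and peptide loading genes, H2-T24, the loading chaperone Tapbp (-0.26) and the class I transactivator Nlrc5 (-0.35) fell and none rose, with a median of -0.07. Of 11 class II genes 1 fell, H2-Oa, a peptide exchange inhibitor (-0.24). With the 6 arrays alone, and with the actin covariate, 1 class I gene and no class II gene passed. All 11 class II differences were below 0, between -0.26 and -0.08, and in XX the median of the same 11 was 0.02.

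Genes of mature single-positive thymocytes included 10 that fell, and no gene of double-positive cells passed. Of 27 measured genes of maturation and egress 10 fell, 1 rose and 16 did not pass, with a median of -0.24, against 4.34% of all probe sets lower and 4.25% higher. Ms4a4b, a membrane protein of mature T cells, read 9.37, 9.38 and 9.71 in XY- and 8.84, 8.84 and 8.61 in XY-sry, a fall of 0.72. Il7r, the interleukin 7 receptor, fell by 0.46, the quiescence genes Slfn1 and Slfn2 by 0.70 and 0.33, and Klf2, which drives egress receptors, by 0.32. Gimap3 fell by 0.38 and Ms4a6b by 0.31. The list shares H2-T24, Ccl5 and Samhd1 with other lists, and its rising gene was Bcl2, a survival factor (0.44). Only H2-T24 passed with the 6 arrays alone, and 2 of the 27 with the actin covariate. None of 19 double-positive genes passed, with a median of -0.02 and a range of -0.15 to 0.27. Satb1 and Rag1, genes of this stage, differed by -0.02 and 0.05.

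Among 11 double-negative stage genes Il2ra and Notch3, a Notch receptor, rose by 0.80 and 0.49 and Il7r fell. T cell receptor components and signalling genes had 1 call in 19, Cd28, and a median of -0.04. Of 19 T lineage transcription factors Id2, Id3, another E protein inhibitor (-0.36), and Nr4a1, an orphan nuclear receptor induced by receptor signalling (-0.32), fell. Regulatory T cell genes gave 4 falls and 1 rise in 12: Icos, the integrin Itgae (-0.45), the folate receptor relative Izumo1r (-0.44) and the receptor Tnfrsf4 (-0.30) fell, and Il2ra rose. All these counts stand against 4.34% of all probe sets lower and 4.25% higher. By the brightest probe sets, 1 double-negative, 1 T cell receptor, 0 T lineage factor and 2 regulatory T cell genes passed with the 6 arrays. With the actin covariate the counts were 1, 1, 2 and 1. The less bright Id2 probe set, which fell by 0.84, passed in both fits.

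B and plasma cell genes fell in 5 of 11 measured cases, against 4.34% of all probe sets, and all 11 differences were below 0, with a median of -0.34. Mzb1, a plasma cell chaperone, read 7.78, 7.51 and 7.68 in XY- and 6.64, 6.55 and 6.68 in XY-sry, a fall of 1.03. Pou2af1, a coactivator in B cells, fell by 0.73, the immunoglobulin joining chain Jchain by 0.59, the heavy chain Ighm by 0.55 and Cd22, an inhibitory receptor, by 0.29. Ighm and Cd22 did not pass without XY- replicate 2 (adjusted p = 0.0704 and 0.0639). With the 6 arrays 3 of the 11 passed, and none with the actin covariate. The summed linear signal of the 11 genes was 7998 to 8750 in XY- and 5800 to 6202 in XY-sry, with no overlap. The defining B cell regulators Pax5 and Ebf1 lay below the floor in both groups.

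Dendritic cell and macrophage genes fell in 3 of 21 cases, against 4.34% of all probe sets, and rose in none, with 20 of the 21 differences below 0 and a median of -0.23. C1qa, a complement subunit of macrophages, fell by 0.45, Fscn1, an actin bundler of mature dendritic cells, by 0.40 and the lectin Cd209a by 0.37, and none of the 3 passed with the 6 arrays or the actin covariate. Neutrophil genes had the lowest median of any list, -1.01, and none of 7 passed. S100a8 read 7.77, 7.51 and 9.01 in XY- and 7.50, 7.28 and 6.06 in XY-sry. XY- replicate 3 was the highest and XY-sry replicate 3 the lowest, and the other 4 arrays lay between 7.28 and 7.77. The summed signal of the 7 genes ranged from 624.2 to 1612 in XY- and from 298.1 to 641.4 in XY-sry. Car2, a carbonic anhydrase, fell by 0.48 on a list of red cell genes of which 2 were measured, and Hba-a1 and Hbb-b2 lay below the floor.

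Among cortical epithelial genes every call was a rise. Of 21 measured genes 7 rose, against 4.25% of all probe sets, none fell and 14 did not pass, with a median of 0.21. Besides Igfbp5, Isl1, Fgfr2 and Cxcl12 they were Slc46a2, a transporter of the thymic stroma, Il7, the cytokine that sustains early thymocytes, and Tbata. Slc46a2 read 7.66, 7.46 and 7.70 in XY- and 8.29, 8.08 and 8.50 in XY-sry, a rise of 0.68 (adjusted p = 0.00466). Il7 read 7.34, 7.12 and 7.56 against 7.80, 7.54 and 7.90, a rise of 0.41 (adjusted p = 0.0467) in which the highest female exceeded the lowest male. It did not pass without XY- replicate 2 (adjusted p = 0.112). Tbata rose by 0.28. By the brightest probe sets Igfbp5 alone passed with the 6 arrays, and with the actin covariate. The less bright Isl1 probe set, which rose by 0.62, passed in both fits (limma adjusted p = 0.0316 and 0.0432). Of 13 medullary epithelial genes only Krt17, a keratin, passed, and fell by 0.33, with a median of -0.09. Of 6 tissue-restricted antigen genes Csn2, a milk casein, fell by 0.44. The medullary and antigen counts stand against 4.34% of all probe sets lower.

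Stromal genes split. Of 14 fibroblast and matrix genes 3 rose, Ltbp3, the fibronectin gene Fn1 (0.62) and the proteoglycan gene Lum (0.69), and 3 fell, Postn (-0.57), Sparc (-0.36) and Bgn (-0.33). A second Sparc probe set differed by 0.22 and did not pass. Postn encodes periostin, and read 8.49, 8.65 and 8.79 in XY- and 8.20, 8.07 and 7.95 in XY-sry. Fn1 read 6.85, 6.66 and 7.03 against 7.43, 7.40 and 7.56. In both genes the groups were apart, in opposite directions. Among 10 proteases and inhibitors Timp1 (-0.68) and Timp3 fell. These counts stand against 4.25% of all probe sets higher and 4.34% lower. By the brightest probe sets, 1 of the 14 and none of the 10 passed with the 6 arrays, and the same with the actin covariate. The less bright Timp3 probe set, which fell by 0.79, passed in both fits. No endothelial gene of 6 and no fat gene of 8 passed, and the summed signal of the fat genes, 1297 to 1528 in XY- and 1062 to 1312 in XY-sry, overlapped.

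**Figure D3:**
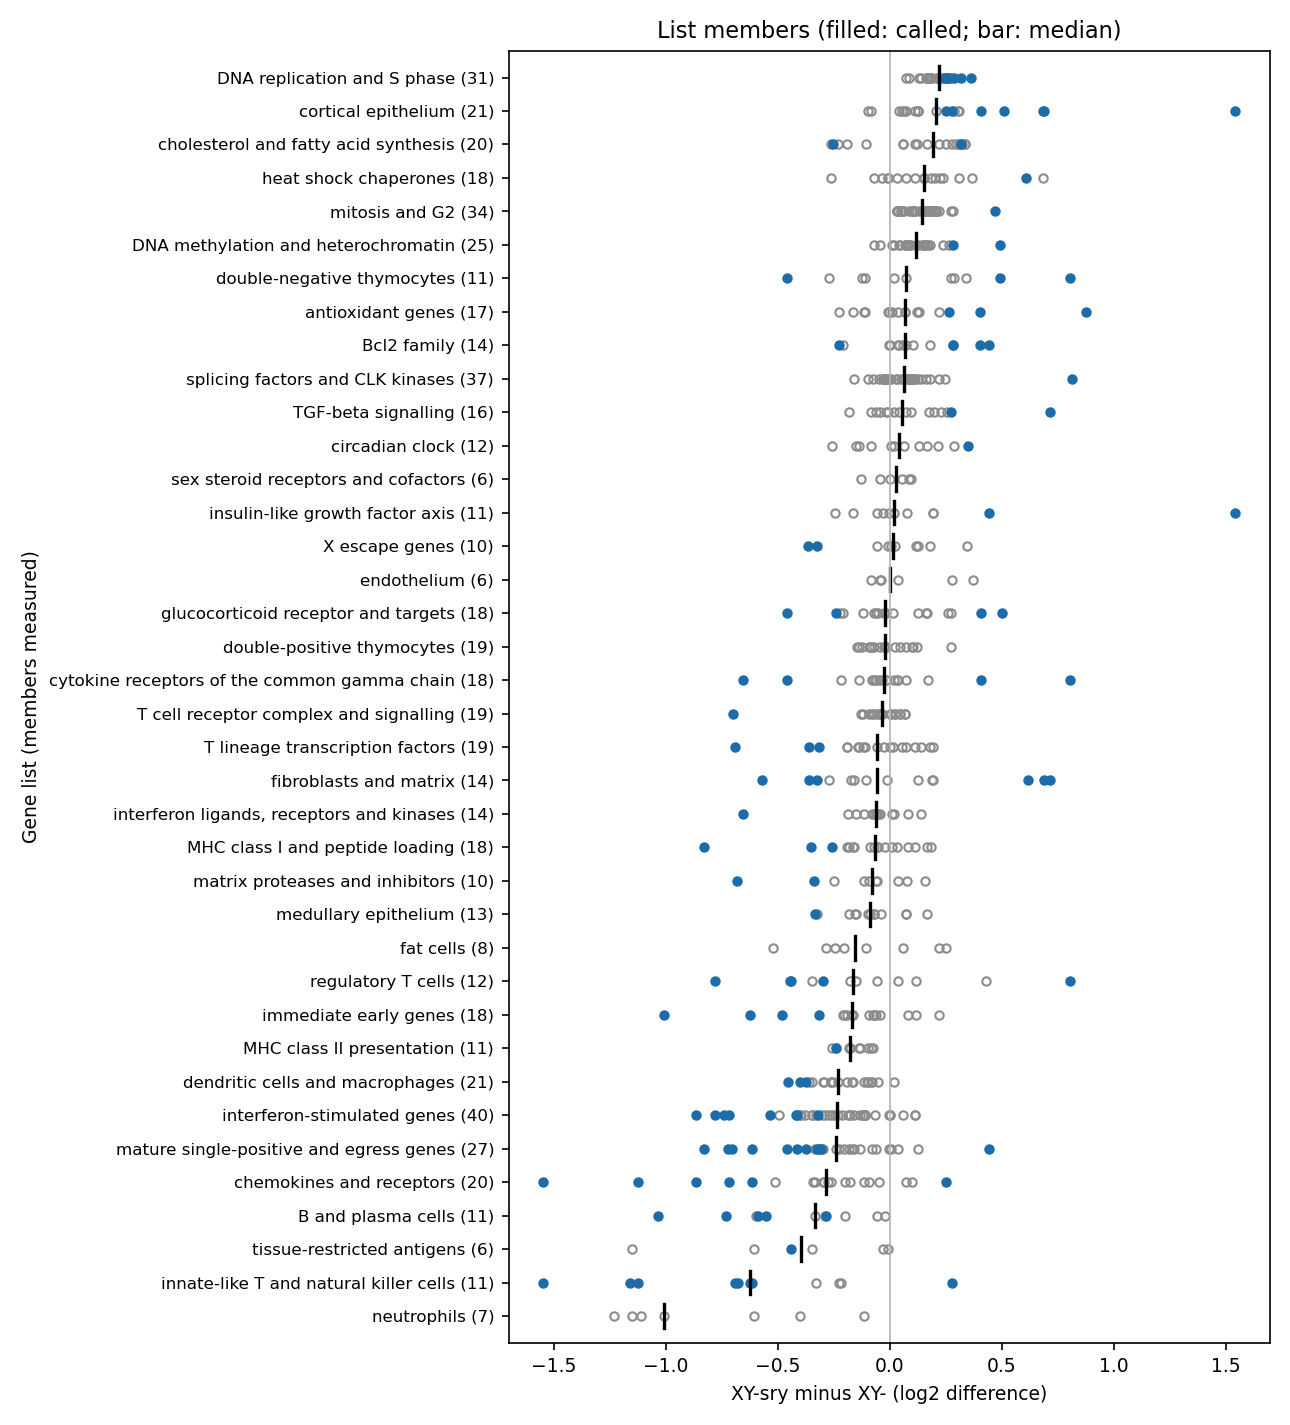
Log2 difference, XY-sry minus XY-, of each measured member of the gene lists, with filled points for members past the threshold and bars at list medians. Natural killer, B cell and single-positive lists lie to the left of 0, with medians of -0.63, -0.34 and -0.24, and cortical epithelium and S phase to the right, at 0.21 and 0.22.

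Of 31 measured genes of DNA replication and S phase 6 rose and 25 did not pass, against 4.25% of all probe sets higher. All 31 differences were above 0, from 0.07 to 0.36 with a median of 0.22. The 6 were Ung, a uracil glycosylase (0.36), the polymerase subunit Pold1 (0.32), the maintenance methyltransferase Dnmt1 (0.28), the ligase Lig1 (0.26), the primase Prim1 (0.25) and the licensing factor Cdt1 (0.24). Pold1 read 8.12, 8.19 and 8.05 in XY- and 8.44, 8.36 and 8.51 in XY-sry. In 20 of the 31 genes all males lay above all females, against 18.0% of all probe sets. None passed with the 6 arrays alone or with the actin covariate, where the median was 0.32, and 13 passed when arrays were centred. All 34 genes of mitosis were also above 0, with a median of 0.14, but 1 passed, the lamin gene Lmnb1 (0.47).

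Stress and hormone response lists are set against the 8.59% of all probe sets called. Of 18 immediate early genes 4 fell and none rose: Btg2, an antiproliferative factor, by 1.01, Jun by 0.63, Junb by 0.48 and Nr4a1. Btg2 read 10.74, 10.97 and 10.55 in XY- and 9.49, 10.09 and 9.65 in XY-sry, with all males below all females. Its second probe set differed by -0.14 with overlapping groups (adjusted p = 0.474), so the fall rests on 1 of 2 probe sets. Of the 18 genes 1 passed with the 6 arrays and none with the actin covariate. Bag3, a co-chaperone, was the only call among 18 heat shock genes and rose by 0.61. Of 18 genes around the glucocorticoid receptor Fkbp5 and Klf9 (0.41) rose and Il7r and Cdkn1a (-0.24) fell. None of the 18 passed with the 6 arrays or the actin covariate in its brightest probe set. The less bright Fkbp5 probe set, which rose by 0.51, passed in both fits (limma adjusted p = 0.0316 and 0.0377). No measured sex steroid receptor or cofactor passed of 6, with Nrip1 and Ncoa1 at 0.08 and 0.05 in their brightest probe sets. Of the 4 other probe sets of Nrip1, a corepressor of nuclear receptors, 2 fell, by 0.60 and 0.65. Dbp, a clock output gene, rose by 0.35, the only call among 12 clock genes.

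Counts in the lists below are set against the 8.59% of all probe sets called. In the Bcl2 family Bcl2, Bok (0.40) and Bid (0.28) rose and Mcl1 (-0.23) fell, out of 14. Among 17 antioxidant genes Nqo1, the glutathione reductase gene Gsr (0.40) and Sod1 (0.26) rose. Grb10, an adaptor of insulin-like growth factor receptors, rose by 0.44 and was with Igfbp5 the only call among 11 genes of that axis. Tgfbr3, a TGF-beta co-receptor, rose by 0.27, with Ltbp3, out of 16. Acaca, the first enzyme of fatty acid synthesis, rose by 0.32 and the sterol enzyme Sc5d fell by 0.25, out of 20. A second Sc5d probe set differed by 0.36, the opposite sign, without overlap (adjusted p = 0.0767). Dnmt3b, a methyltransferase, rose by 0.49 and was with Dnmt1 the only call among 25 genes of DNA methylation and heterochromatin. Of 18 genes of the common gamma chain receptors Il2ra and Il7 rose and Il7r and Socs1 fell. Of 10 genes that escape X inactivation Kdm6a fell by 0.37 in 1 of its 2 probe sets, the other differing by 0.03, and the second to fall was Bgn. Arglu1 was the only call among 37 splicing genes. By the brightest probe sets, 1 gene passed with the 6 arrays in each of the antioxidant, insulin-like growth factor, TGF-beta and common gamma chain lists. With the actin covariate 1 passed in each of the insulin-like growth factor and TGF-beta lists. No other list of this paragraph, the Bcl2 family included, had a gene that passed in either fit.

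The largest decreases are given as a description, since the set was chosen by these values. The 128 probe sets that fell by at least 1 had a median of -1.24, and 49 of them had no single gene symbol. The 70 named genes were led by Krit1, Phip, Pdpk1, Sox4, Kmt2e, Gsk3b, Elf1, Hnrnpab, Luc7l2 and Ggnbp2. XY- replicate 2 was the highest of all 12 arrays in 122 of the 128. Krit1, a scaffold protein of vessel junctions, read 6.19, 7.55 and 5.48 in XY- and 3.97, 4.76 and 4.40 in XY-sry, a difference of -2.03 ± 0.391 (limma adjusted p = 0.0116). Sox4, a transcription factor of lymphocyte precursors, read 7.79, 8.67 and 7.65 against 5.83, 6.81 and 5.84 (-1.88 ± 0.288; adjusted p = 0.00517). Gsk3b, a kinase of many pathways, read 6.13, 7.47 and 5.64 against 4.09, 4.99 and 4.70 (-1.82 ± 0.370; adjusted p = 0.014). In each the groups did not overlap and XY- replicate 2 was the highest array. The log2 differences of the others were -2.003 (Phip), -1.92 (Pdpk1), -1.85 and -1.66 (2 probe sets of Kmt2e), -1.72 (Elf1), -1.68 (Hnrnpab), -1.67 (Luc7l2) and -1.63 (Ggnbp2). Krit1, Gsk3b and Ggnbp2 averaged 4.38, 4.59 and 4.92 in XY-sry, below the floor of 5, and were measured through their XY- values. So were others of the 128.

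Different probe sets of these genes did not move together. Of the 70 genes 62 had more than 1 tested probe set, in none of the 62 did all pass in the same direction, and 42 had a probe set of opposite sign. The other tested probe sets of Hnrnpab lay between 0.07 and 0.22, the other of Pdpk1 at 0.11 and the other of Elf1 at 0.08. With the 6 arrays alone 7 of the 128 passed, and 7 with the actin covariate, where the median was -0.58. Without XY- replicate 2 the median was -0.995 and 113 of the 128 passed. Centred on all 12 arrays, the mean of the 128 was 0.49, 1.19 and 0.25 in XY- and -0.91, -0.39 and -0.76 in XY-sry, while XX and XXsry arrays lay between -0.31 and 0.17. Of 602 genes with a call upward 325 had more than 1 tested probe set, and 74 of them had one of opposite sign. Of 515 genes with a call downward 393 had more than 1, and 237 of them one of opposite sign. Probe sets without a single symbol made up 22.9% of the falls, 10.6% of the rises and 2157 of the 17910 tested.

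**Figure D4:**
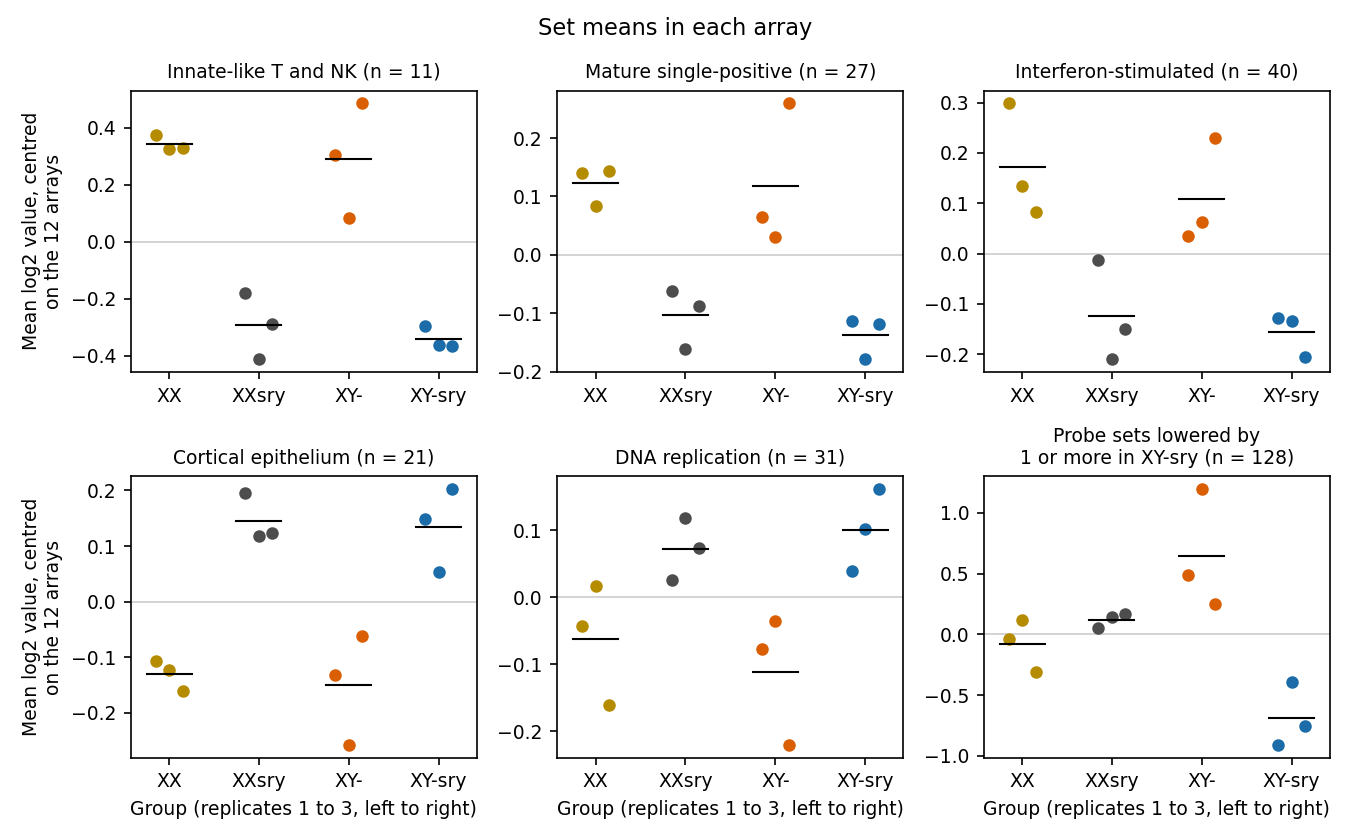
Mean log2 value of gene sets in each of the 12 arrays, centred on the mean of the 12, with replicates 1 to 3 from left to right in each group. For the 128 large decreases XY- replicate 2 is the highest array at 1.19 and XX and XXsry lie near 0, while natural killer and cortical epithelial genes separate both pairs of groups.

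The same comparison in XX mice, XXsry minus XX, shares no array with this one and was used to ask where the effect in XY- differs. Both came from 1 fit with a shared estimate of spread, so calls in the 2 are not independent. In XX 131 of 17910 probe sets passed (0.731%), 68 higher and 63 lower. Both comparisons called 87, which is 66.4% of the XX calls and 5.65% of the XY- calls: 40 were higher in both, 45 lower in both and 2 opposite. Of the 1539 XY- calls 893 had an XX effect of the same sign. The median XX effect was 0.08 over the higher XY- calls and 0.04, also above 0, over the lower ones. The share with the same sign over all tested probe sets is not given here. Among genes called in both, Igfbp5 rose by 1.54 in XY- and 1.87 in XX, Kcnk2 by 0.83 and 0.99, Nqo1 by 0.88 and 0.87, Slc46a2 by 0.68 and 0.79 and Fgfr2 by 0.51 and 0.72. Lower in both were Cxcr6 (-1.55 and -1.44), Cxcr3 (-1.12 and -1.16), Cxcl10 (-0.86 and -0.91), Icos (-0.78 and -0.78), Nkg7 (-0.68 and -0.67) and Klrd1 (-1.16 and -1.36). Ubd, a ubiquitin-like protein, differed by -0.68 and -0.60, and Ctsw, a cathepsin of cytotoxic cells, by -0.56 and -0.65. List medians in the 2 comparisons are given without a test of their difference. They were for natural killer genes -0.63 in XY- and -0.54 in XX, interferon-stimulated genes -0.24 and -0.29, B cell genes -0.34 and -0.37, cortical epithelium 0.21 and 0.15, and S phase 0.22 and 0.14.

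The difference of the effects, XY- minus XX, passed for 232 probe sets (1.3%), 47 with a more positive and 185 with a more negative effect in XY-. Of the 232, 216 were also called in XY- and 7 in XX. Each effect is part of the difference, so these overlaps are a description only. Cd28 was among them: XX read 10.04, 10.15 and 10.06 and XXsry 10.00, 10.05 and 10.16, so it differed by -0.01 in XX and -0.70 in XY- (difference -0.69; limma adjusted p = 0.0212). H2-T24 fell by 0.83 in XY- and differed by -0.28 in XX, and Id2 fell by 0.84 in XY- and by 0.33 in XX (difference adjusted p = 0.0212 and 0.0245). The second Id2 probe set fell by 0.69 and 0.54, with a difference of -0.15 (adjusted p = 0.708). Lmnb1 rose by 0.47 in XY- and fell by 0.48 in XX (difference 0.94; adjusted p = 0.0212). Its values were 8.40, 8.30 and 8.02 in XX and 7.68, 7.82 and 7.79 in XXsry, the reverse order of XY-. In Plpp3, a lipid phosphatase, and Enpp5 the effect was in XX: they rose by 0.57 and 0.58 there and differed by -0.15 and -0.04 in XY-, where they did not pass. Of the 128 large decreases 65 passed for the difference, and 111 had an XX effect above 0. The 128 were chosen by their XY- effect, which is part of the difference, so the count of 65 is a description only. The share of all probe sets with an XX effect above 0 is not given here.

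How many probe sets passed for the difference depended on single arrays. The count fell to 0 without XX replicate 1, without XY-sry replicate 3, without XXsry replicate 2 or without XXsry replicate 3, to 1 without XY-sry replicate 1, to 11 and 37 without XX replicates 3 and 2, and to 79 and 96 without XY- replicate 1 and XXsry replicate 1. It rose to 388 without XY-sry replicate 2 and 450 without XY- replicate 3, and was 1 with either the actin or the Gapdh covariate. In the XX comparison the count ranged from 37, without XXsry replicate 2, to 221, without XY- replicate 2.

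**Figure D5:**
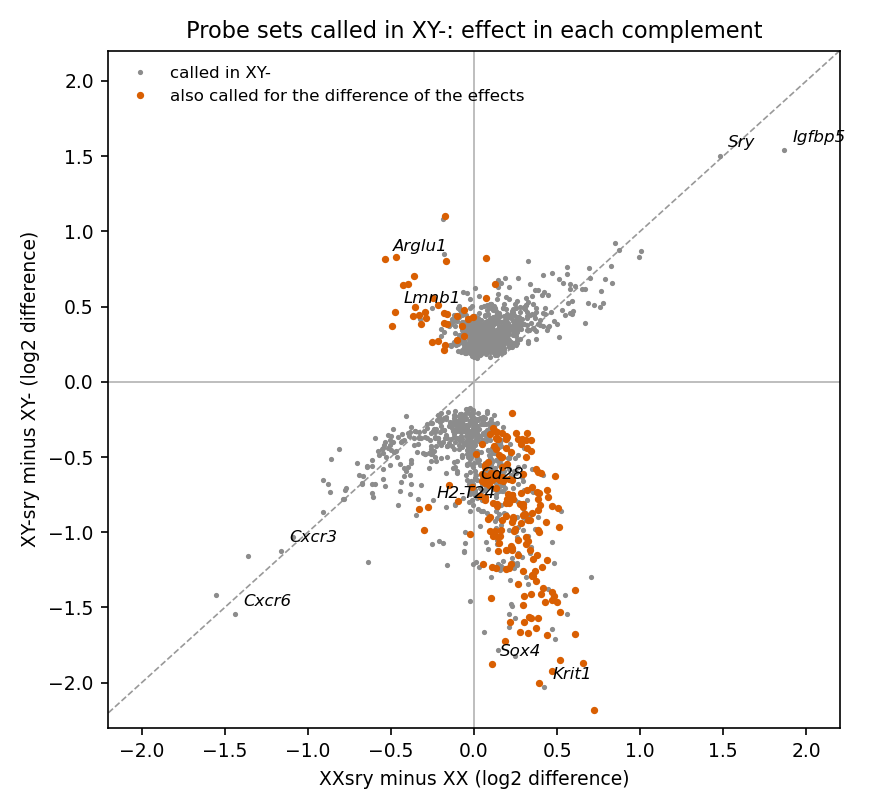
Log2 difference with Sry in XX (x axis) against that in XY- (y axis) for probe sets called in XY-, with those also called for the difference of the effects in orange. Sry, Igfbp5, Cxcr6 and Cxcr3 have similar values on both axes, and the large decreases lie at the bottom with XX values mostly above 0.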

How the data were processed

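Thymus total RNA was hybridised to 12 one-colour arrays, 3 in each of the groups XX, XXsry, XY- and XY-sry, grouped by their labels. The authors deposited log2 values. Per the submitters' processing notes these came from RMA, with no version named. RMA forces arrays to a common distribution, so a shift of most genes at once would be reduced. The tables hold 45101 probe sets. Leaving 64 controls aside, 34958 had 1 gene symbol in the platform table, 932 several and 9211 none. Entrez identifiers matched 34754 to GRCm38.p6 and 204 did not match. The fit without a filter was an alternative to the floor of 5.

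A model of 4 group means was fitted by limma 3.58.1 in R 4.3.3 (lmFit, eBayes, 8 residual and 3.71 prior degrees of freedom), and p-values were adjusted by Benjamini-Hochberg over all 17910 probe sets, with 0.05 as threshold. The median standard error was 0.0774 for XY-sry minus XY-, and the number of arrays limits the precision. On simulated data with 200 of 17910 probe sets changed, XY-sry minus XY- recovered 27%, 77% and 98% at log2 differences of 0.3, 0.5 and 1, with 2 of 56, 3 of 157 and 11 of 207 calls false. The simulation gave all 4 groups the same spread in a probe set and no shift of whole arrays. In the data XY- had the widest spread, so these shares do not carry over to the 1539 calls. Python 3.11.15 was used for summaries and matplotlib 3.10.9 for figures.

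Members and lists were chosen with earlier results of these data known. A list is described by its calls and median, with the brightest probe set standing for a gene, and lists were not tested. The genes named were Sry and other Y-linked genes, the 20 with the smallest p and the 10 with the largest difference in each direction, up to 6 called members of each list (or the 2 highest where none was called), the 10 in each direction with the smallest p for the difference from XX, and the 10 called in both. Further list members and the other fits' members named in the text were chosen after their values were seen. Whether the replicate numbers pair the samples is not known. Deviations of same-numbered XY- and XY-sry arrays correlated at 0.11, 0.18 and -0.03, which cannot decide it with 3 arrays a group. XY- replicates 1 and 2 correlated best with the XY-sry array of the same number, and XY- replicate 3 with XY-sry replicate 1. The main fit used no pairing. Alternatives covered the filter, centring, normalization, the arrays in the fit, array weights, control probe set covariates, 1 probe set per gene, thresholds and each array left out.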

Additional observations from a re-analysis of the deposited data

Results flagged for a closer look

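The log2 difference between males and females was not the same in both sex chromosome complements for 232 probe sets (limma adjusted p under 0.05 for the difference of the effects, XY- minus XX). Named genes for which the effect was more positive in XY- were Arglu1 (1.35), Taf15 (1.30), Prpf19 (1.07), Snrpd3 (1.05), Gm6958 (0.97), Lmnb1 (0.94), Rraga (0.86), Swi5 (0.80), Ywhab (0.64), Pus3 (0.57), Smarcc1 (0.52) and Cds1 (0.49), where the number is the difference of the effects. Named genes for which it was more negative in XY- were Phip (-2.40), Pdpk1 (-2.39), Kmt2e (-2.37), Hnrnpab (-2.28), Ggnbp2 (-2.01), Luc7l2 (-2.00), Sox4 (-1.98), Kmt2e (-1.94), Elf1 (-1.91), Ccr6 (-1.27), Msi2 (-1.09) and Rap2b (-1.01). Those with smaller sizes were Slc25a30 (-0.98), Btg2 (-0.98), Zbtb20 (-0.98), Pdcd6ip (-0.83), Ccdc88c (-0.81), Trio (-0.74), Plpp3 (-0.72), Timp3 (-0.70), Nlk (-0.70), Cd28 (-0.69), Cd44 (-0.68), Enpp5 (-0.61), H2-T24 (-0.55), Id2 (-0.51) and Junb (-0.50). Kmt2e is given with 2 of its 4 tested probe sets. Of these 38 genes 30 had more than 1 tested probe set, and only in Lmnb1 did all of them pass for the difference of the effects. The second Id2 probe set, for example, had a difference of -0.15 (adjusted p = 0.708). The effects themselves pointed in opposite ways, by their values in the 2 comparisons, for example in Lmnb1, Arglu1, Prpf19 and Taf15, which were positive in XY- and negative in XX. With 1 array left out the count of 232 ranged from 0 to 450, so that the count depends on single arrays.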

How the results depend on the processing

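Of 1539 probe sets called for XY-sry minus XY-, the count stayed within 1.5 times without a filter, with a floor of 6, with the floor over 12 arrays, under centring, quantile normalization and the trend with robust settings. It was 59 with only the 6 arrays, 4253 with array weights, 54 and 78 with the actin and Gapdh covariates, 691 with 1 probe set per gene, 2761 at an adjusted p under 0.1 and 512 at a difference of at least 0.5. After seeing the data, 2 fits were added: 5 arrays without XY- replicate 2 gave 136, and 6 arrays with the replicate block gave 363. Leaving out 1 array gave 525 to 1521. The replicate block on 12 arrays gave 1616, 371 for the difference of the effects and 114 in XX. Whether the replicate numbers pair the samples is not known. Calls for the difference of the effects numbered 154 with quantile normalization, 1273 with array weights, 1 with either covariate, 15 with 1 probe set per gene and 469 at an adjusted p under 0.1, and 0 to 450 with 1 array left out. In XX array weights gave 1314, an adjusted p under 0.1 gave 244, a difference of at least 0.5 gave 80, and leaving out 1 array 37 to 221. The cause of these changes was not tested. No named probe set that was called changed sign. Of those not called 12 did under some alternative, such as Eif2s3y (0.16, and -0.33 with the actin covariate) and Nrip1 (0.08 and -0.08), and so did the medians of 16 lists, which lay between -0.19 and 0.28 as reported. Of 161 named probe sets 101 lost their call with the 6 arrays and 116 with the actin covariate. With 3 arrays a group, calls of small differences are the least certain.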
